A study of Bos taurus with 18 samples.

Results

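The 9 genes MTR, MTRR, MTHFD1, MTHFD2, SHMT1, SHMT2, CHDH, DMGDH and SARDH encode enzymes of the folate cycle and of choline oxidation. They were chosen by name, as the probe sets whose annotated gene symbol was exactly one of these. Each matched 1 probe set, so 9 of the 18457 probe sets with a single gene symbol are described, and all 9 passed the filter on dim probe sets. Liver RNA came from 18 multiparous Holstein cows, with 1 Affymetrix Bovine Gene 1.0 ST array per animal. The niacin group (n = 9) ate corn and grass silage-based mixed rations with rumen-protected niacin (NiaShure) added at a dosage of 79 mg per kg body weight, beginning 3 weeks ahead of the expected calving. By the labels, this corresponds to 47 mg reaching the duodenum and an estimated 31 mg absorbable per kg body weight. The control group (n = 9) ate the same rations without the supplement. All cows were biopsied 1 week after calving, so both groups were in early lactation, and the labels do not give their ages. The comparison is limited to a single dose and a single time.

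Folate carries one-carbon units between serine, glycine, purines, thymidylate and methionine. Serine hydroxymethyltransferases load tetrahydrofolate from serine, the MTHFD enzymes interconvert the oxidation states of the loaded folate, and methionine synthase hands the methyl group to homocysteine. In liver mitochondria, choline is oxidised to betaine, whose methyl groups are passed on to homocysteine or released by dimethylglycine and sarcosine dehydrogenases as one-carbon units. Dietary choline is largely degraded in the rumen, so cows depend strongly on their own methyl group metabolism. Surplus nicotinamide is methylated in the liver before excretion, a step that uses methyl groups from the same pool, and the question here is whether transcripts of these enzymes differed after niacin feeding.

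Transcripts of none of the 9 genes differed detectably between niacin-fed and control cows. Their log2 differences, niacin minus control, lay between -0.13 for MTR and 0.06 for CHDH, and the 95% interval of every gene included 0. No interval reached below 0.743 or above 1.29 as a fold of niacin over control. The lowest and the highest of the 18 cows differed by 1.39-fold (MTRR) to 2.99-fold (SHMT2). That is a range of single arrays, measurement noise included, and is not comparable with an interval of a difference of means. Across cows, 3 pairs of the genes correlated past the threshold. MTHFD2 tended to be high where SHMT1 was high and SARDH low, and SHMT2 where MTHFD1 was high. These calls were fragile: by Spearman rho 0 pairs passed, and each call was lost without any 1 of 7 to 11 of the cows. Those with MTHFD2 also rest on a low signal, with a mean log2 level of 5.22 that was under every array median.

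The values are log2 expression per probe set, in which 1 unit is a factor of 2, and since probe sets differ in brightness per transcript, levels of the 9 genes are not set against each other. Array medians lay between 5.57 and 5.72, and the arrays correlated at 0.972 to 0.990 over 153 pairs. The number of arrays limits the precision. The tissue label was checked against hepatocyte markers such as ALB and CPS1, of which 11 of 11 were measured, with mean levels of 10.04 to 13.45. The 5 measured kidney markers had mean levels of 3.38 to 5.74. Of these, SLC12A1 was below the limit of 4.35 under which probe sets counted as dim, and 4 were above it. The highest, SLC34A1, lay just above the array medians. Markers of blood cells were also listed. All 10 genes of the leukocyte score, their mean log2 level, were above 0 in niacin minus control, 3 of them at an unadjusted p under 0.05 (3.34% of all tested probe sets were higher at that p), and 0 passed after adjustment by limma. The score ran between 6.91 and 7.78 in niacin cows and between 6.78 and 7.36 in control cows. Niacin 8 was far above the other cows in some blood markers. HBB was at 11.47 and HBA at 10.58 in it, against niacin medians of 6.06 and 6.18. The neutrophil marker S100A12 was at 9.32 (niacin median 6.43). Niacin 8 was also the highest cow in the red cell markers ALAS2 (7.22, niacin median 5.09) and AHSP (4.92, niacin median 4.55). The same held for the neutrophil markers S100A8 (6.26, niacin median 4.38), S100A9 (6.49, niacin median 5.84) and CSF3R (6.09, niacin median 5.58). Other markers of red cells (HBM, SLC4A1) and neutrophils (CXCR2, MMP9, LTF) were highest in other cows. The bearing of this on the 9 genes was not tested.

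**Figure D1:**
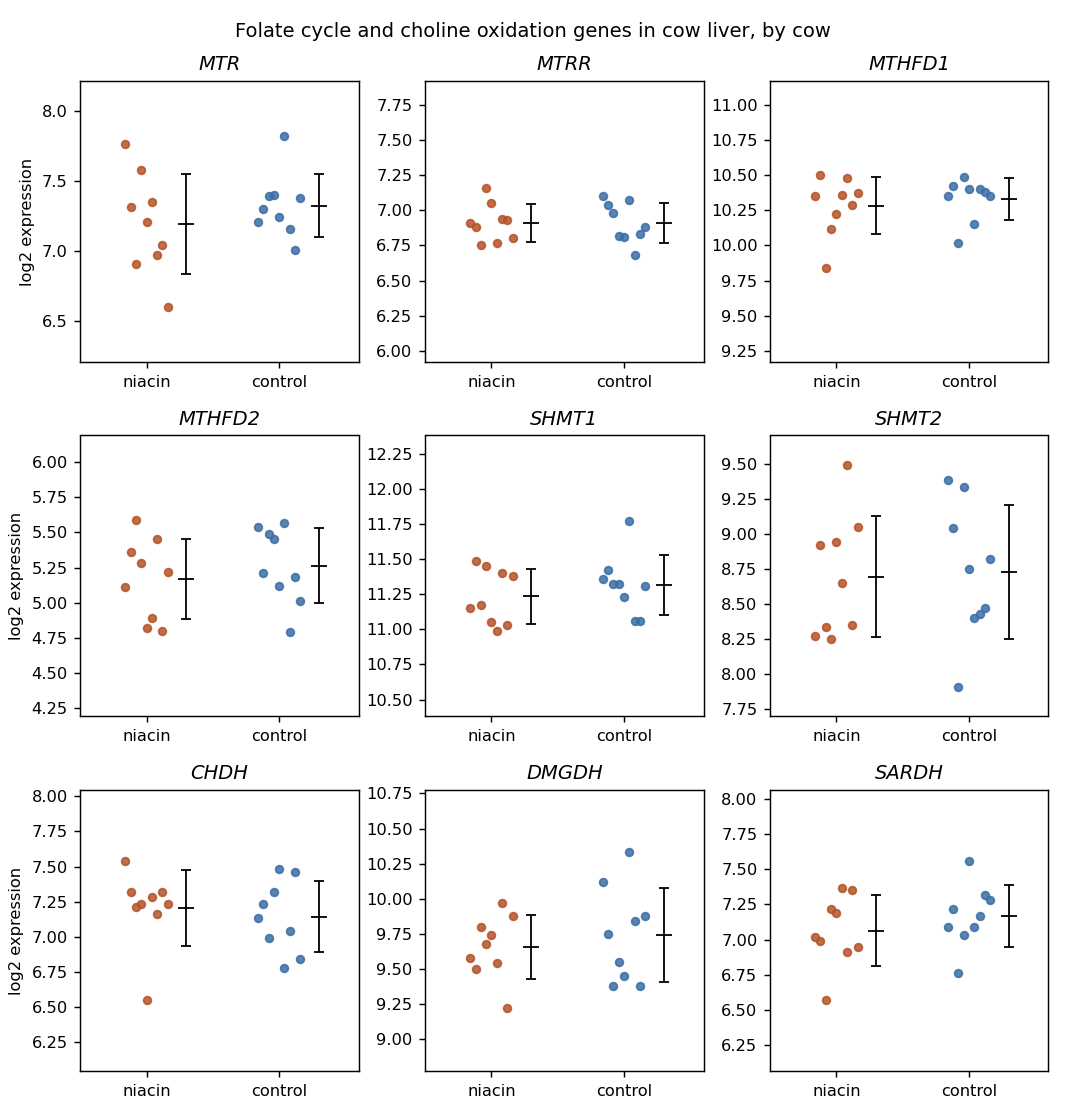
Log2 expression of each of the 9 genes (vertical axes, each spanning 2 log2 units around the gene's own level) in the 9 niacin and 9 control cows. Points are cows, and the black bar beside them is the mean ± SD; the 2 groups overlap in every panel, and SHMT2 has the widest spread.

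Methyl transfer to homocysteine was represented by MTR, the cobalamin-dependent methionine synthase, and MTRR, the reductase that restores oxidised methionine synthase to activity. MTR ran from 6.60 through a median of 7.21 to 7.76 in niacin cows, and from 7.01 through 7.30 to 7.82 in control cows. Niacin 40 was the lowest of all animals and control 23 the highest, and the groups overlapped over most of their range. Its mean was 7.19 ± 0.36 in niacin cows and 7.32 ± 0.23 in control cows (SD, n = 9 each), a log2 difference of -0.13 ± 0.13 (SE; limma adjusted p = 0.856, exact permutation p = 0.371). It was -0.06 without niacin 40, -0.07 without control 23 and -0.20 without niacin 3. MTRR was the steadiest of the 9 genes. It ran from 6.75 through 6.91 to 7.16 in niacin cows, and from 6.68 through 6.88 to 7.10 in control cows. The group means were alike at 6.91 ± 0.13 with niacin and 6.91 ± 0.14 in controls, with a log2 difference of -0.0022 and an interval of -0.15 to 0.15 (limma adjusted p = 0.998). The sign of the MTRR difference was not settled, since it lay between -0.03 and 0.02 on leaving out 1 cow at a time. Spread between cows of the same group was at the 10.7th percentile of all tested probe sets for MTRR and at the 84.9th for MTR.

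In the cytosol, SHMT1 transfers a one-carbon unit from serine to tetrahydrofolate, and MTHFD1 is a trifunctional enzyme that interconverts the loaded folates and makes formyl-folate for purine synthesis. SHMT1 ran from 10.99 through 11.17 to 11.49 in niacin cows, and from 11.06 through 11.32 to 11.77 in control cows. Control 23 was the highest animal, as it was for MTR, and 5 of 9 niacin cows were below the control median. The log2 difference of SHMT1 was -0.08 ± 0.10 (SE; limma adjusted p = 0.880), with means of 11.23 ± 0.20 in niacin and 11.32 ± 0.21 in control cows. Without control 23 it was -0.03. MTHFD1 ran from 9.84 through 10.35 to 10.50 in niacin cows, and from 10.02 through 10.38 to 10.49 in control cows. Most cows were close together, and niacin 8 and control 12 were the lowest of their groups. Its log2 difference was -0.05 (interval -0.23 to 0.13, limma adjusted p = 0.931), and 0.01 without niacin 8.

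In mitochondria, SHMT2 feeds one-carbon units from serine into the organelle and MTHFD2, a dehydrogenase and cyclohydrolase, oxidises them. In mice and humans MTHFD2 is known as abundant in embryonic and dividing cells and low in most adult tissues. MTHFD2 ran from 4.80 through 5.22 to 5.59 in niacin cows, and from 4.79 through 5.21 to 5.57 in control cows, almost the same range. Its mean over the 18 arrays was 5.22, under every array median (5.57 to 5.72) and at the 40.2th percentile of all probe sets. The log2 difference was -0.09 ± 0.12 (SE; limma adjusted p = 0.894), and between -0.15 and -0.05 on leaving out 1 cow at a time. With the leukocyte score as a covariate it was -0.23 (limma adjusted p = 0.777).

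SHMT2 varied more between cows than 96.1% of tested probe sets. It ran from 8.25 through 8.65 to 9.49 in niacin cows, and from 7.91 through 8.75 to 9.38 in control cows. Control 12 was the lowest animal and niacin 33 the highest, so the extremes came from different groups. The means were 8.70 ± 0.43 with niacin and 8.73 ± 0.48 in controls, with a log2 difference of -0.03 and the widest interval of the 9 genes, -0.43 to 0.37 (limma adjusted p = 0.983). Its sign was not settled: on leaving out 1 cow the difference lay between -0.13 and 0.05, and with the hepatocyte score as a covariate it was 0.12.

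Choline oxidation begins with CHDH, the mitochondrial choline dehydrogenase that makes betaine aldehyde. CHDH was the single gene of the 9 with a mean above the control mean. It ran from 6.55 through 7.23 to 7.54 in niacin cows, and from 6.78 through 7.13 to 7.48 in control cows. Niacin 15 stood apart as the lowest animal, while the other 8 niacin cows were all above the control median. The means were 7.20 ± 0.27 with niacin and 7.14 ± 0.25 in controls, a log2 difference of 0.06 ± 0.12 (SE; limma adjusted p = 0.932). Without niacin 15 the difference was 0.15 and still did not pass (limma adjusted p = 0.817), and with the leukocyte score as a covariate it was 0.00.

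DMGDH and SARDH are the flavin enzymes that demethylate dimethylglycine and sarcosine in the mitochondrial matrix and pass the one-carbon unit to tetrahydrofolate. DMGDH ran from 9.22 through 9.68 to 9.97 in niacin cows, and from 9.38 through 9.75 to 10.33 in control cows. The lowest animal was niacin 39 and the highest control 23, which thus held the highest value of 3 genes, MTR, SHMT1 and DMGDH. The log2 difference of DMGDH was -0.09 ± 0.13 (SE; limma adjusted p = 0.915), and -0.01 without control 23. SARDH ran from 6.57 through 7.02 to 7.37 in niacin cows, and from 6.76 through 7.17 to 7.56 in control cows. Niacin 8 was the lowest animal and control 20 the highest, with the groups overlapping in between. SARDH averaged 7.06 ± 0.25 with niacin and 7.17 ± 0.22 in controls, a log2 difference of -0.11 ± 0.11 (SE; limma adjusted p = 0.859, exact permutation p = 0.365, the smallest exact p of the 9 genes). Without niacin 8 it was -0.04, and with the leukocyte score as a covariate 0.01.

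**Figure D2:**
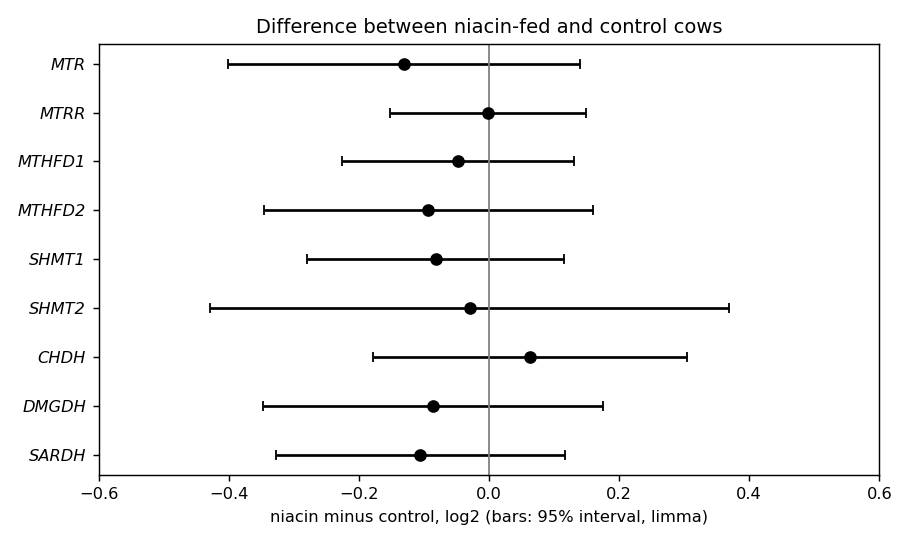
Niacin minus control for each gene on the log2 scale, with points for the limma estimate and bars for its 95% interval. The 9 estimates lie between -0.13 and 0.06 and all 9 bars cross 0.

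By limma, 0 of the 9 genes passed an adjusted p of 0.05 over all 18250 probe sets tested, where 0 probe sets (0.0%) did. At an unadjusted p under 0.05 it was again 0 of 9 by limma and by the exact permutation test, against 7.74% of all tested probe sets by limma (1413). The groups overlapped in all 9 genes, as in every tested probe set (0.0% without overlap). The differences of 8 of the 9 genes were below 0, with a median of -0.08, while 45.8% of all tested probe sets were below 0 and their median was 0.01. Without niacin 8 it was 5 of 9, with a median of -0.04, and none of these single differences passed. Long genes tended to the lower side on these arrays. Ranked by the span of the gene, 5 of the 9 genes belong to the longest 0.25 of tested probe sets, where the median difference was -0.02, against 0.03 in the shortest 0.25. With the trend over gene length removed from each array, 7 of 9 were below 0 and the median was -0.07. In biopsies, fewer cells of a type and less RNA per cell cannot be told apart.

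The 2 enzymes of a pair can be compared for their difference within each cow, which asks whether niacin moved one more than the other. For the mitochondrial SHMT2 minus the cytosolic SHMT1, niacin minus control was 0.05 (95% interval -0.41 to 0.51). For MTHFD2 minus MTHFD1 it was -0.05 (-0.42 to 0.33), and for DMGDH minus SARDH 0.02 (-0.40 to 0.44). MTRR minus MTR had the largest difference of the 4 pairs, at 0.13 (-0.14 to 0.39; exact permutation p = 0.321). Adjusted over the 4 pairs, each p was 0.930, so no pair was shown to differ in its response. The widest of these intervals still allowed a shift of about 0.51 log2 units between partners.

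Across the 18 cows, the 36 pairs of genes had Pearson r between -0.65 and 0.70, with a median of 0.08, 22 above 0 and 14 below. An absolute r of at least 0.6 was reached by 3 of 36 pairs, or 8.33%, and by 3.19% of all pairs of tested probe sets. The same 3 pairs passed an adjusted p of 0.05 over the 36 pairs by a two-sided permutation test (100000 resamples), and 7 did so before adjustment. With Spearman rho, 0 pairs passed, and these 3 had an adjusted p of 0.0526 each. The 4 enzyme pairs compared above did not pass. SHMT1 and SHMT2 had an r of 0.20, MTHFD1 and MTHFD2 -0.29, DMGDH and SARDH -0.26, and MTR and MTRR 0.44. Folate enzymes of the same compartment did not pass either, with an r of -0.02 for SHMT1 and MTHFD1 in the cytosol. In mitochondria it was 0.15 for SHMT2 and MTHFD2.

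**Figure D3:**
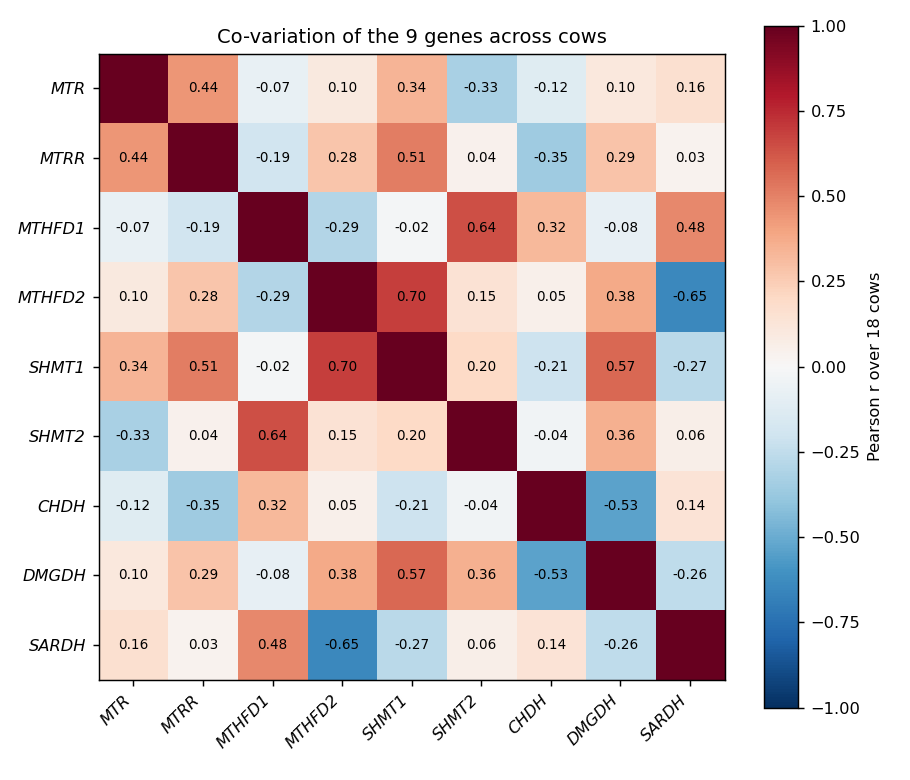
Pearson r over the 18 cows for the 36 pairs of the 9 genes, with both axes listing the genes and colour giving r between -1 and 1. The 3 strongest cells are MTHFD2 with SHMT1 (0.70), MTHFD2 with SARDH (-0.65) and MTHFD1 with SHMT2 (0.64).

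MTHFD2 and SHMT1 varied together with an r of 0.70 (permutation p = 0.0012, adjusted p = 0.0419) and a rho of 0.68 (permutation p = 0.0028). Cows low in both, such as niacin 19, niacin 39, niacin 15 and control 36, and cows high in both, such as control 23, came from both groups. Within the groups r was 0.70 in niacin cows and 0.67 in control cows, and 0.61 over all cows without control 36 and niacin 39, the 2 animals farthest from the median of MTHFD2. The call lay close to the threshold and was lost without any 1 of 7 cows (control 16 or 23, niacin 14, 19, 33, 39 or 40), with r of 0.66 to 0.70 in those cases and adjusted p of 0.0508 to 0.0760.

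SARDH was low in the cows in which MTHFD2 was high. Over all cows r was -0.65 (permutation p = 0.0035, adjusted p = 0.0419) and rho -0.65 (permutation p = 0.0044). It was -0.85 in niacin cows and -0.56 in control cows, and -0.66 without control 36 and niacin 39. The leukocyte score had an r of 0.43 with MTHFD2 and of -0.58 with SARDH, neither of which passed. Once the score was regressed out, the r of the pair was -0.54 (adjusted p = 0.138). The call was lost without any 1 of 11 cows (control 11, 12, 16, 23 or 42, niacin 8, 14, 19, 33, 39 or 40), with adjusted p of 0.0559 to 0.118.

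MTHFD1 and SHMT2, a cytosolic and a mitochondrial enzyme, varied together from cow to cow, with an r of 0.64 (permutation p = 0.0031, adjusted p = 0.0419) and a rho of 0.66 (permutation p = 0.0033). Within the groups r was 0.59 in niacin cows and 0.74 in control cows, and 0.58 over all cows without niacin 8 and control 12, which were low in both genes. With the mean of the hepatocyte markers regressed out, r was 0.38 (adjusted p = 0.490). The call was lost without any 1 of 10 cows (control 11, 12, 16, 23 or 42, niacin 14, 19, 33, 39 or 40), with adjusted p of 0.0559 to 0.107.

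**Figure D4:**
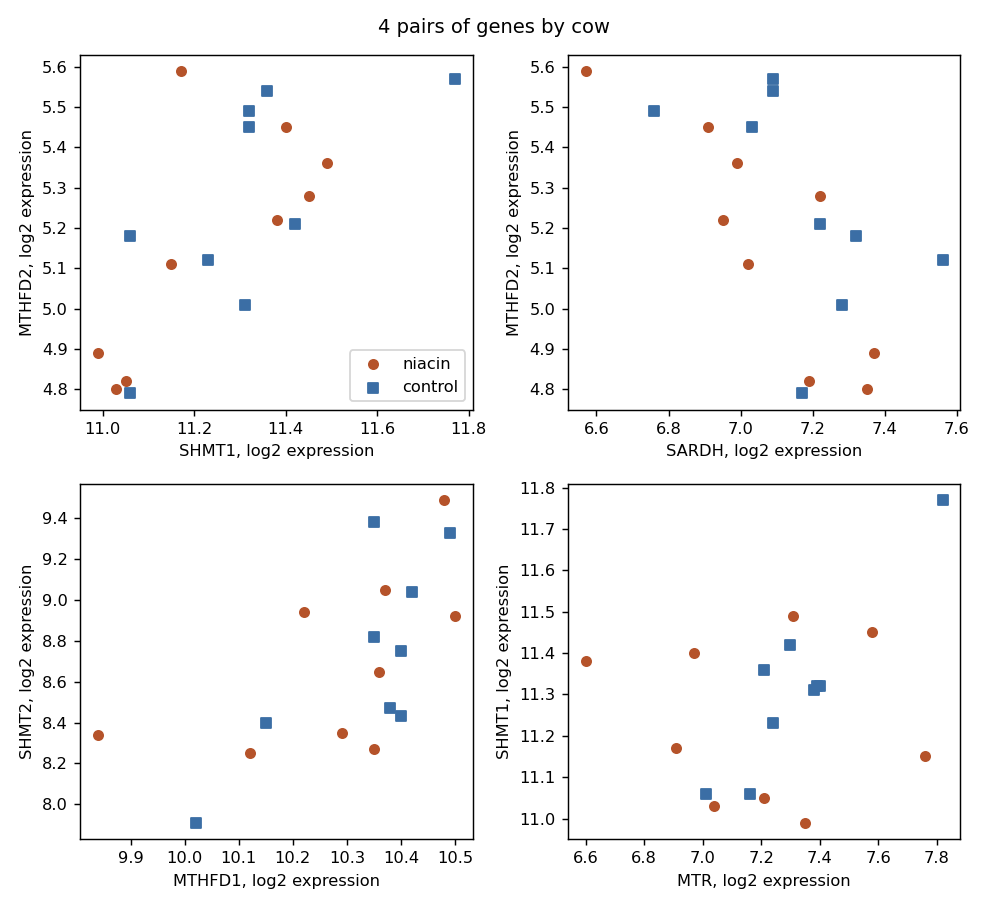
Log2 expression of 4 pairs of genes, 1 point per cow, circles for niacin and squares for control cows. MTHFD2 increases with SHMT1 and decreases with SARDH, SHMT2 increases with MTHFD1, and MTR and SHMT1 lie along a line in control cows (r = 0.91) but not in niacin cows (r = -0.09), a difference that did not pass after adjustment.

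MTR and SHMT1 had an r of -0.09 in niacin cows and of 0.91 in control cows, or 0.74 in control cows without control 23, the highest in both genes. The difference between the groups had an exact permutation p of 0.0287, and 0.471 after adjustment over the 36 pairs. Of the 36 pairs, 2 had an unadjusted exact p under 0.05 for such a difference, the other being MTR and CHDH (0.25 in niacin cows, -0.67 in control cows, exact permutation p = 0.0479), and 0 passed after adjustment. Among the other pairs, SHMT1 and DMGDH had an r of 0.57 (permutation p = 0.0127, adjusted p = 0.114), or 0.33 without control 23 and niacin 19. CHDH and DMGDH, the first and a later step of choline oxidation, had an r of -0.53 (permutation p = 0.0237, adjusted p = 0.171) and a rho of -0.62. MTRR and SHMT1 had an r of 0.51 (permutation p = 0.0311, adjusted p = 0.187), or 0.41 without niacin 14 and control 36. MTHFD1 and SARDH had an r of 0.48 (permutation p = 0.0464, adjusted p = 0.239) that rested on niacin 8 and control 12, since it was -0.22 without them.

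Each gene was also set against the leukocyte score and the mean of the hepatocyte markers, 18 relations in all. The hepatocyte score ran between 11.92 and 12.15 in niacin cows and between 11.92 and 12.18 in control cows. MTHFD1 followed it with an r of 0.73 (permutation p adjusted over the 18 = 0.0112) and a rho of 0.57, but r was 0.46 without control 12 and niacin 8. This was the single relation to pass. SHMT2 came next with an r of 0.59 (adjusted permutation p = 0.0693), 0.37 in niacin cows and 0.80 in control cows, and 0.42 without control 12 and niacin 8. SARDH had an r of -0.58 with the leukocyte score (adjusted permutation p = 0.0693), or -0.32 without niacin 8 and niacin 7. MTHFD2 and the leukocyte score had an r of 0.43 over all cows, or 0.26 without niacin 8 and niacin 7. This r was 0.93 in niacin cows and 0.01 in control cows. With the same score, r in niacin and control cows was 0.43 and -0.81 for DMGDH, 0.52 and -0.34 for SHMT1, and -0.82 and -0.09 for SARDH. In the other genes the groups were closer. None of these differences between groups was tested. The part of leukocyte or hepatocyte RNA in the levels of these genes was not tested.

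The genes most like each of the 9 were those with the highest r over the 18 cows after each group was centred on its mean, given here as a description. MTHFD1 was closest to CAT, the catalase gene (0.89), STOM (0.88) and MGC152010 (0.88). DMGDH was closest to the steroid dehydrogenase gene HSD17B6 (0.89), ZNF277 (0.81) and LCMT2 (0.79). CHDH was closest to SGPP1, a sphingosine phosphate phosphatase (0.87), ABCB11, the bile salt export pump (0.85), and DHRS3 (0.83). For SARDH these were MFSD3 (0.86), MYMK (0.85) and LOC100300003 (0.84), and for SHMT2 the lysophospholipid transporter gene MFSD2A (0.84), GLYCTK (0.79) and FBP1, a gluconeogenic phosphatase (0.79). PTPN21 (0.84), LGALS9 (0.82) and TCAF2 (0.81) led for MTHFD2, and CRBN (0.84), MAN2A1 (0.83) and SCYL3 (0.83) for SHMT1. MTR was closest to LARP1 (0.80), SETD2 (0.78) and CYB5D2 (0.77), and MTRR to VIRMA (0.80), KIAA0408 (0.80) and USPL1 (0.79). The share of tested probe sets that tracked a gene was highest for MTHFD2: 9.04% of tested probe sets had an absolute r of at least 0.6 with it, against 1.56% (SHMT2) to 3.99% (SHMT1) for the other 8 genes.

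**Figure D5:**
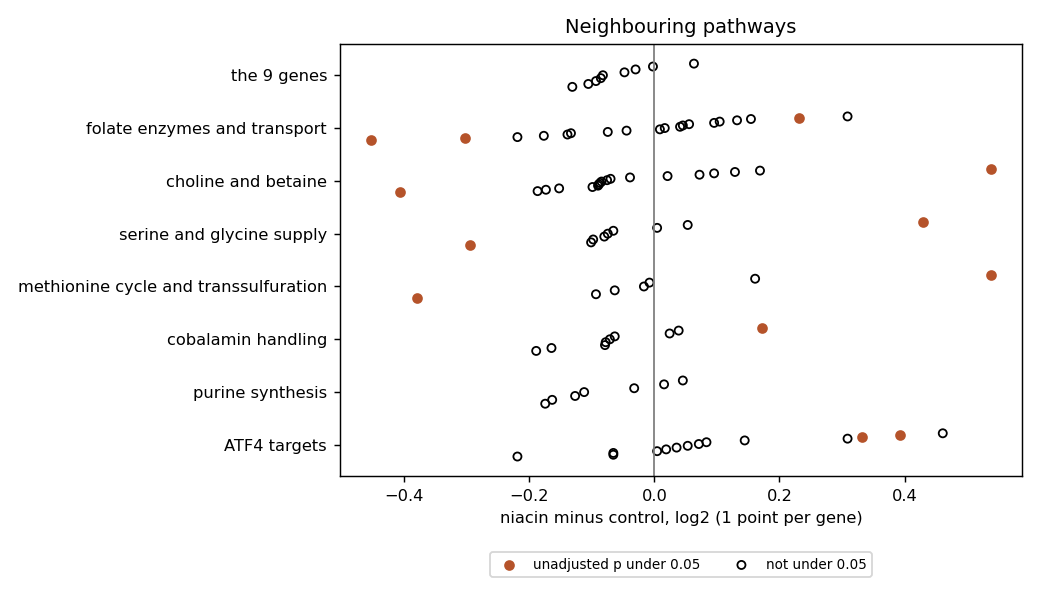
Niacin minus control on the log2 scale, 1 point per gene, for the 9 genes and for lists of neighbouring pathways (rows). Filled points have an unadjusted limma p under 0.05, and none of the 9 genes is filled. GNMT appears in both the choline and the methionine list. MTHFD1L and ALDH1L2 appear in the folate and ATF4 lists, and PHGDH, PSAT1 and PSPH in the serine and ATF4 lists.

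Neighbouring genes of the pathway were listed by function, and 0 of them passed an adjusted p of 0.05. Folate enzymes and transport had 22 genes on the list, of which 19 had a probe set and were tested. At an unadjusted p under 0.05, 2 of these 19 were lower with niacin (4.41% of all tested probe sets) and 1 was higher (3.34%), with a median difference of 0.02. FTCD, which links histidine breakdown to the folate pool, ran from 8.45 through 8.96 to 9.64 in niacin cows and from 9.20 through 9.53 to 9.74 in control cows. In 8 of 9 niacin cows it lay under the median of the controls, at a log2 difference of -0.45 ± 0.13 (SE; limma adjusted p = 0.453). ALDH1L1, which oxidises formyl-folate to carbon dioxide, averaged 10.30 ± 0.32 with niacin and 10.60 ± 0.10 in controls, a difference of -0.30 (limma adjusted p = 0.507). The folate receptor gene FOLR2, which macrophages express, was at 8.05 ± 0.18 with niacin and 7.81 ± 0.26 in controls (0.23, limma adjusted p = 0.604). In the same cows 10 of 11 macrophage markers were above 0, while 45.8% of all tested probe sets were below 0. Of these markers, 4 were higher at an unadjusted limma p under 0.05 (3.34% of all tested probe sets) and 0 after adjustment. With the leukocyte score as a covariate FOLR2 was at 0.093, and at 0.12 without control 1 and niacin 8. The part of macrophage RNA in the level of FOLR2 was not tested.

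Of 21 listed genes of choline and betaine metabolism, 18 were tested. At an unadjusted limma p under 0.05, 1 was higher (3.34% of all tested probe sets) and 1 lower (4.41%), with a median of -0.08. CHKA, choline kinase, which directs choline to phosphatidylcholine, was at 7.62 ± 0.34 with niacin and 8.03 ± 0.39 in controls (-0.41, limma adjusted p = 0.550). GNMT, which methylates glycine to sarcosine, the substrate of SARDH, was at 6.97 ± 0.68 with niacin and 6.44 ± 0.27 in controls (0.54, or 0.35 without niacin 15; limma adjusted p = 0.574). Among 7 tested genes of the methionine cycle, GNMT is also the single one higher at an unadjusted limma p under 0.05 (3.34% of all tested probe sets). MAT2A, a methionine adenosyltransferase, was the single one lower at that p (4.41%), at -0.38 (limma adjusted p = 0.595). Among 9 genes of serine and glycine supply, the glyoxylate aminotransferase gene AGXT2 lay under the median of the controls in 9 of 9 niacin cows (9.44 ± 0.24 against 9.74 ± 0.10, a difference of -0.29, limma adjusted p = 0.453). SDS, serine dehydratase, was at 0.43 (limma adjusted p = 0.613), or 0.28 without niacin 8 and 0.19 with the leukocyte score as a covariate.

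Cobalamin handling, which supplies the cofactor of MTR, had 9 tested genes with a median of -0.07. At an unadjusted limma p under 0.05, 1 was higher (3.34% of all tested probe sets) and 0 were lower (4.41%). The higher gene was CD320, the cellular receptor for transcobalamin, at 7.89 ± 0.12 with niacin and 7.72 ± 0.19 in controls (0.17, limma adjusted p = 0.636). In purine synthesis, a consumer of formyl-folate, 0 of 7 genes reached the threshold, with a median of -0.11, PPAT at -0.17 and ADSL at -0.13. MTHFD2 and SHMT2 are known in mice and humans as targets of the stress factor ATF4. Of 14 tested genes on a list of ATF4 itself and other targets of it, 2 reached the unadjusted threshold, both higher with niacin (3.34% of all tested probe sets). They were ATF3 at 0.39 (limma adjusted p = 0.474, and 0.25 with the leukocyte score as a covariate) and SLC3A2 at 0.33 (limma adjusted p = 0.496). The median of the 14 was 0.06. In the same cows MTHFD2 was at -0.09 and SHMT2 at -0.03.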

How the data were processed

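Per the submitters' processing notes, the authors used RMA in Affymetrix Expression Console, whose version the labels do not give. The log2 unit was read from the deposited values, which ran from 0.85 to 14.04. Per the labels' protocols, 11 of 22 cows were in each group and the 2 RNA samples of lowest integrity per group were left out, with an integrity number of 7.2 ± 0.5 for the 18 used. RMA normalizes arrays to one distribution, so a shift common to most genes cannot be seen. Groups were taken from the titles, and no batch is given.

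Here, the dimmest 0.25 of probe sets by mean (6083 of 24333) were left out. The rest were fitted with limma 3.58.1 in R 4.3.3, niacin minus control without a covariate, two-sided, and adjusted by Benjamini-Hochberg over all 18250. Exact tests used all 48620 splits of the arrays (Python 3.11.15). For genes with several probe sets the brightest was used. Symbols came from the platform annotation, and 688 probe sets with several symbols and 5188 with none were never named. Gene spans came from a RefSeq table (ARS-UCD2.0). The tests were checked on simulated data.

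Named genes are the 9 genes, in each neighbouring list those at an unadjusted p under 0.05 (at most 4) or otherwise the 2 of smallest p, the 3 genes most like each, and correlated pairs past the threshold. Other pairs were named after their values were seen. The genes, lists and tests were chosen with earlier results of these data known. Relations to marker scores and differences of r between groups were added after seeing the data.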

Additional observations from a re-analysis of the deposited data

Results flagged for a closer look

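Among the 9 genes, the 13 named genes of neighbouring lists and the 4 differences within enzyme pairs, 2 of 52 groups of 9 values had 1 cow set apart, by a gap that exceeded 0.493 of the whole spread of the group. By chance alone 1 in 20 would be, or 2.6. CHDH was at 6.55 in niacin 15, and the next lowest niacin cow was at 7.16. MTR was at 7.82 in control 23, and the next highest control cow was at 7.40.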

How the results depend on the processing

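In every alternative run, 0 of the 9 genes passed, adjusted or not, over 11 other settings and 18 fits without 1 array. Over all probe sets, 0 passed in the 11 settings and 0 to 1 on leaving out 1 array, with 1100 to 1732 at an unadjusted p under 0.05. Signs changed for some genes and enzyme pairs, most of them near 0 but also for SARDH, which was at -0.11 without a covariate. With array weights MTRR was at 0.0088, with a second quantile normalization at 0.0059, with the gene length trend removed at 0.0015 and with the leukocyte score as a covariate at 0.027. That covariate put CHDH at -0.0036 and SARDH at 0.0074. The hepatocyte score as a covariate put MTHFD1 at 0.024 and SHMT2 at 0.12. Leaving out control 1 and niacin 8 put MTRR at 0.041, MTHFD1 at 0.01, SHMT2 at 0.10 and DMGDH minus SARDH at -0.0025. On leaving out 1 array, MTRR lay between -0.033 and 0.021, MTHFD1 between -0.086 and 0.0074, SHMT2 between -0.13 and 0.052, SHMT2 minus SHMT1 between -0.050 and 0.13, MTHFD2 minus MTHFD1 between -0.15 and 0.022, and DMGDH minus SARDH between -0.065 and 0.11. The cause was not tested. Pairs of genes past the adjusted threshold numbered 3, but 0 with Spearman rho, 1 with the hepatocyte score regressed out and 0 to 4 on leaving out 1 array, while those with an absolute r of at least 0.6 numbered 2 to 6. MTHFD1 and SHMT2 also lost the call with the gene length trend removed (r = 0.61, adjusted p = 0.0697), and MTHFD2 and SARDH without control 1 and niacin 8 (r = -0.60, adjusted p = 0.101) and with the hepatocyte score regressed out (r = -0.65, adjusted p = 0.0740). With the lowest 0.5 of probe sets left out, MTHFD2 was not tested. No other probe set of the 9 genes existed to compare. No paired analysis was possible because the groups share no cow numbers.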
